A study of Sus scrofa with 34 samples.

Results

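Matrix metalloproteinases (MMPs) and tissue inhibitors of metalloproteinases (TIMPs) were followed in the ileum and liver of weaned piglets as 10 genes chosen by symbol: MMP2, MMP9, MMP14, MMP15, MMP19, MMP28, TIMP1, TIMP2, TIMP3 and TIMP4. Of these, 9 had a row with that symbol among the 25880 genes counted, 6 MMPs and 3 TIMPs, and TIMP2 is not analysed here. The crossbred piglets received a basal diet (control), the basal diet with a phytogenic feed additive of plant extracts and nature-identical compounds (PFA), a diet with added rapeseed oil that had been oxidized by heating (OO), or both together (OO + PFA). By the study's diet table the oxidized oil was an extra ingredient, taken from the same kind of rapeseed oil, and the oil diets were calculated to hold more energy, so that effects of oxidation and of added fat cannot be told apart. Tissue was taken on day 28, which the labels give as the age and the study's methods as the time on the diets. The ileum was sequenced from 5 control and 5 PFA pigs, all of which also gave a liver library, and the liver from 6 pigs per diet. Since every diet had only 1 pen, effects of the pen and of the diet cannot be told apart. Pigs are named by their number.

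MMPs are zinc-dependent endopeptidases that cut collagens, laminins, proteoglycans and other matrix and surface proteins. They are made as inactive zymogens, are activated by other proteases or by furin, and are held in check by TIMPs, which bind the active site. MMP2 and MMP9 are the gelatinases, MMP14 and MMP15 are anchored in the membrane, MMP19 and MMP28 are secreted enzymes of the basement membrane and epithelium, TIMP1 binds pro-MMP9, and TIMP3 is retained in the matrix. In injured liver, stellate cells are a known source of MMP2 and TIMP1, and neutrophils carry MMP9.

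The 250 bases before the annotated gene start are shown for MMP19, the member that passed the test across liver diets, for MMP9, a classical target of the transcription factor AP-1, and for TIMP4, the inhibitor with the greatest difference between tissues. They were read from Sscrofa11.1 at the starts of the RefSeq gene models, 5' to 3' on the strand of the gene: chr5:21285944-21286193 (minus strand), chr17:48179440-48179689 (plus) and chr13:68191200-68191449 (minus). Capitals mark matches on either strand. The letters searched for AP-1 were TGANTCA, with any base for N, which is looser than the consensus TGAGTCA or TGACTCA. Those for the GC box, a site of Sp factors, were GGGCGG. For the promoter element named the TATA box the search used TATAAA. For the half-site that nuclear receptors bind, it used AGGTCA. The fifth motif was the CCAAT box, which none of the printed windows holds. Matches to different motifs do not overlap in the printed windows.
MMP19: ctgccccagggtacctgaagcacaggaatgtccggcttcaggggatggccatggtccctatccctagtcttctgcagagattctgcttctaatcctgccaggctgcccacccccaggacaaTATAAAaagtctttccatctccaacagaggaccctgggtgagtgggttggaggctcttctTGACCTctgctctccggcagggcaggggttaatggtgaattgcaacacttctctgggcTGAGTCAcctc
MMP9: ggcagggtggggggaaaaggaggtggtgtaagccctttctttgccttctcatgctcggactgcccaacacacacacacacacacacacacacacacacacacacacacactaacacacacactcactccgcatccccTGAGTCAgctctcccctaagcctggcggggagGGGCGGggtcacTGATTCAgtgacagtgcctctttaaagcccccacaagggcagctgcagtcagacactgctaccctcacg
TIMP4: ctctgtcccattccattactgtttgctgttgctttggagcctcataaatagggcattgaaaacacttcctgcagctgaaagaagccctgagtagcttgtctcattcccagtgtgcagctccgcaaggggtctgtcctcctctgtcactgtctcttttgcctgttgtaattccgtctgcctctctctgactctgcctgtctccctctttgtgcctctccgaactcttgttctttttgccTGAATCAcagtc

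A match to TGANTCA lay in the windows of these 3 genes and of no other member. It lay in 4.50% of the 13703 windows of the same length read in the same way. The matches started 11 bases before the gene start in MMP19 (TGAGTCA), 12 in TIMP4 (TGAATCA), and 113 (TGAGTCA) and 69 (TGATTCA) in MMP9. The consensus letters were thus in the windows of MMP19 and MMP9 and not of TIMP4, and their share over all windows was not counted. A GC box was present in the windows of 6 members, MMP2, MMP9, MMP14, MMP15, MMP28 and TIMP3, and in 53.3% of all windows. A TATA box match was in the windows of MMP19 and MMP28 (7.94% of all windows), the half-site in that of MMP19 (11.3%) and a CCAAT box in those of MMP2, MMP14, TIMP1 and TIMP3 (31.7%). These are matches of letters and not binding sites.

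The ileum libraries held between 18772230 and 24338165 read pairs counted on genes, and the liver libraries between 18738055 and 42446834. Hepatocyte markers summed to between 99072 and 231262 CPM (counts relative to library size, with library sizes scaled by TMM) in the liver libraries used and to between 2088 and 4898 CPM in the ileum, and TTR, APOA2, APOH, FGG and HPD had at most 3 counts in any ileum library. Enterocyte markers summed to between 17293 and 33249 CPM in the ileum and to between 257 and 916 CPM in the liver. Liver library titles come in 2 forms, PigLiv and PL, and libraries differ in how strongly expression rises with the GC content of genes (GC slope, in log2 units per 10% GC), so that both are given beside the results they touch. The OO + PFA liver library of pig 77, which the study left out, is outside all fits unless named. The GC slope of this library was 0.67 and that of the other liver libraries lay between -0.47 and 0.49.

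In the RefSeq annotation of Sscrofa11.1, MMP2 (ENSSSCG00000002829) lies at chr6:30059247-30087031, MMP9 (ENSSSCG00000007436) at chr17:48179690-48186782, MMP14 (ENSSSCG00000002039) at chr7:76174502-76185931, MMP15 (ENSSSCG00000002806) at chr6:19890867-19912941 and MMP28 (ENSSSCG00000034440) at chr12:39739074-39766794. TIMP1 (ENSSSCG00000012277) lies at chrX:42103251-42106289, TIMP3 (ENSSSCG00000031866) at chr5:12185816-12242599 and TIMP4 (ENSSSCG00000033000) at chr13:68179803-68191199. Counts cover the exons of each gene as a whole.

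Per kilobase of exon, MMP19 was the highest member in the liver and TIMP3 the highest in the ileum. In the 23 liver libraries MMP19 was at 62.7 ± 17.2 CPM per kb (SD), and its range, 40.3 to 102.2, lay above that of every other member. MMP14 followed at 17.1 ± 3.85, then TIMP3 at 12.6 ± 3.28, MMP2 at 9.23 ± 2.74, TIMP1 at 6.97 ± 2.22 and MMP15 at 3.92 ± 1.603 CPM per kb. Neighbours in this order kept it in 19 to 22 of 23 pigs, and their ranges overlapped. MMP28 (0.405 ± 0.188), MMP9 (0.184 ± 0.176) and TIMP4 (0.0919 ± 0.0479) were far lower, and MMP9 and TIMP4 fell to 3 counts in single libraries.

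In the ileum 4 members shared the top of the order. TIMP3 was at 36.6 ± 14.5 CPM per kb (SD, n = 10), TIMP1 at 28.5 ± 5.42, MMP2 at 28.2 ± 7.31 and MMP14 at 24.8 ± 4.40, and TIMP1 exceeded MMP2 in only 5 of 10 pigs. MMP15 (8.98 ± 2.94), MMP19 (3.84 ± 0.894), MMP28 (2.29 ± 0.576) and TIMP4 (2.08 ± 0.455) came next, and MMP9 was lowest at 0.702 ± 0.399 CPM per kb. Genes on the other strand overlap TIMP1 (SYN1), TIMP3 (SYN3), TIMP4 (SYN2) and MMP28 (LOC110256052). Exon bases are shared by TIMP4 with SYN2 (90) and by MMP28 with LOC110256052 (26). TIMP1 and TIMP3 share 0 exon bases with SYN1 and SYN3. The library kit kept strand, but the strand setting of the counting is not given in the sources used here.

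Of the 9 members, MMP19 alone passed the test across the 4 liver diets. MMP19 (ENSSSCG00000000368, chromosome 5, 21279514 to 21285943) fell in the livers of pigs fed OO + PFA. The control livers had a lowest value of 119.9 CPM, a median of 176 and a highest of 213, and the PFA livers 127, 172 and 236. The OO livers had 100.1, 127 and 148 CPM. The OO + PFA livers had 93.2, 100.1, 106, 107 and 114 CPM. All 5 OO + PFA livers were therefore below all 6 control and all 6 PFA livers, whereas OO overlapped with every other diet. In all 4 groups together, the adjusted p was 0.0215 (edgeR's quasi-likelihood F-test with Benjamini-Hochberg adjustment over 13831 genes), where 3.66% of all genes tested passed. In bulk tissue, fewer cells of a type and less RNA per cell cannot be told apart.

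Against the control diet, MMP19 was at 104 ± 7.83 CPM (SD, n = 5) with OO + PFA and, without either, at 169 ± 34.3 (SD, n = 6). It was 1.62-fold lower, with a log2 ratio of -0.70 and a standard error of 0.16 (adjusted p = 0.0205). Of all genes, 5.08% were called in this comparison, 0.991% as lower and 4.09% as higher. With OO alone MMP19 was at 128 ± 18.04 CPM (SD, n = 6) (log2 fold change -0.40, standard error 0.15, adjusted p = 0.132), which did not pass. In that comparison 2.71% of genes were called, and none of the 9 members. OO + PFA against OO gave -0.29 (95% interval -0.61 to 0.02, adjusted p = 0.615), and PFA against control gave 0.03 (95% interval -0.27 to 0.33, adjusted p = 0.956). The interaction of oil and PFA was -0.33 (standard error 0.22, adjusted p = 0.524). These contrasts share the control and OO libraries, and in the last 3 no gene was called (0% of genes; 1176, 1522 and 1881 genes at an unadjusted p under 0.05, and 31, 43 and 150 called by DESeq2).

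**Figure D1:**
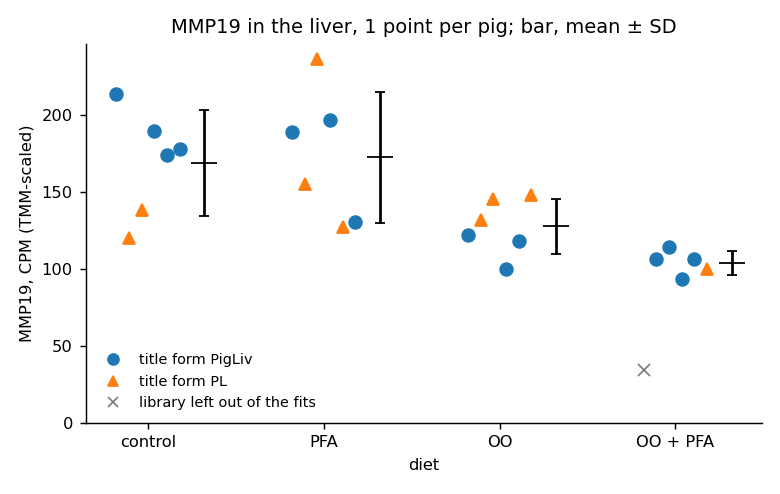
MMP19 in the liver by diet, in CPM, with 1 point per pig, shaped by the form of the library title, and the mean ± SD of the libraries used as a bar. The 5 OO + PFA points used lie between 93.2 and 114 CPM and below every control and PFA point, the 2 control points of title form PL (119.9 and 138) are the lowest of their diet, and the library of pig 77 (cross, 34.5) was left out.

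The values of MMP19 were also read within each title form, a split chosen after seeing the data and without a test of the difference between forms. Over both forms together OO against control was not called, as given above. The share of all genes called within a form is not given here. Among PigLiv libraries the controls lay between 174 and 213 CPM, OO between 100.1 and 122 and OO + PFA between 93.2 and 114, so that neither oil diet overlapped with control, with log2 fold changes of -0.72 (adjusted p = 0.0428) for OO and -0.83 (adjusted p = 0.0192) for OO + PFA. Among PL libraries there were 2 controls (119.9 and 138 CPM), 3 OO livers (132 to 148) and 1 OO + PFA liver (100.1), and the log2 fold changes were 0.10 (adjusted p = 0.909) and -0.40 (adjusted p = 0.935), the latter with the lone OO + PFA library assumed to vary like the others. With the title form as a term over both, OO + PFA against control was -0.70 (adjusted p = 0.0247). Leaving out each pig in turn kept the call across the 4 diets (adjusted p from 0.0101 to 0.0483), but OO + PFA against control was no longer called without control pig 71 (highest adjusted p 0.0567) and without control pig 110. Hepatocyte markers summed to between 115190 and 144023 CPM in OO + PFA livers and between 99072 and 180369 in controls. Of the 11 hepatocyte markers tested, 0 were called in this comparison, and 10 had a log2 fold change below 0 (median -0.25). Macrophage markers summed to between 979 and 2208 CPM and between 547 and 1580 CPM. The part of either cell type in the MMP19 values was not tested.

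The GC slope of the libraries lay between 0.04 and 0.49 in the OO + PFA livers used and between -0.20 and 0.08 in control livers. With diet means removed, MMP19 was related to the slope over 23 livers with Pearson's r = -0.46 (permutation p = 0.0227, adjusted p = 0.0677). By ranks, Spearman's rho was -0.42, with a permutation p of 0.0542 (adjusted p = 0.163). Pearson's r was -0.29 in 14 PigLiv and -0.50 in 9 PL libraries and -0.43 without the 2 pigs farthest from the median slope. After correction of each library for GC content, MMP19 kept its difference: -0.68 for OO + PFA (standard error 0.16, adjusted p = 0.0168) and -0.39 for OO (adjusted p = 0.125).

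The gelatinases did not pass in any liver comparison. MMP9 was below 2 CPM in every liver. Control livers had a lowest value of 0.125 CPM, a median of 0.258 and a highest of 0.340, PFA livers 0.112, 0.352 and 1.31, and OO livers 0.227, 0.376 and 1.93. The OO + PFA livers had 0.203, 0.264, 0.301, 0.399 and 0.537 CPM. The highest PFA (pig 134) and OO (pig 130) livers stood well apart from the rest of their diets. OO against control was at 1.26 on the log2 scale, with a standard error of 0.54 (adjusted p = 0.175), and at 0.53 without pig 130, PFA against control 0.98 (standard error 0.53, adjusted p = 0.502), which was 0.40 without pig 134, and the interaction -1.74 (standard error 0.77, adjusted p = 0.326), which was -1.01 without pig 130. Markers of neutrophils, which carry MMP9, summed to between 3.16 and 7.80 CPM in control, 3.07 and 9.66 in PFA, 4.70 and 20.2 in OO and 2.86 and 21.6 CPM in OO + PFA livers. Their part in the MMP9 values was not tested. MMP2 was at 24.1 ± 8.62 CPM in control, 30.3 ± 6.09 in PFA, 28.0 ± 8.54 in OO and 31.9 ± 10.6 in OO + PFA livers (SD, n = 6, 6, 6 and 5), with an adjusted p of 0.562 across the diets.

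MMP15, a membrane-anchored enzyme, was the member whose log2 fold changes with OO and OO + PFA moved most on GC correction. Control livers had a lowest value of 7.75 CPM, a median of 13.5 and a highest of 25.0, PFA livers 10.1, 14.2 and 16.0, and OO livers 7.56, 16.5 and 30.1. The OO + PFA livers had 19.3, 21.5, 22.4, 23.96 and 29.4 CPM, all above every PFA liver and within the range of the OO livers. OO + PFA against control was 0.63 (standard error 0.32, adjusted p = 0.245), and OO against control 0.23 (standard error 0.30, adjusted p = 0.695). After GC correction both turned, to -0.23 (adjusted p = 0.621) and -0.34 (adjusted p = 0.356). MMP15 has a GC content of 65.9%, the highest of the 9 members, while that of MMP19 is 54.2%. Over the 23 livers its relation to the GC slope, with diet means removed, had r = 0.70 (permutation p = 0.00825, adjusted p = 0.0371) and rho = 0.61 (permutation p = 0.0214, adjusted p = 0.0770), with r = 0.64 in PigLiv, 0.85 in PL libraries and 0.57 without the 2 farthest pigs.

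**Figure D2:**
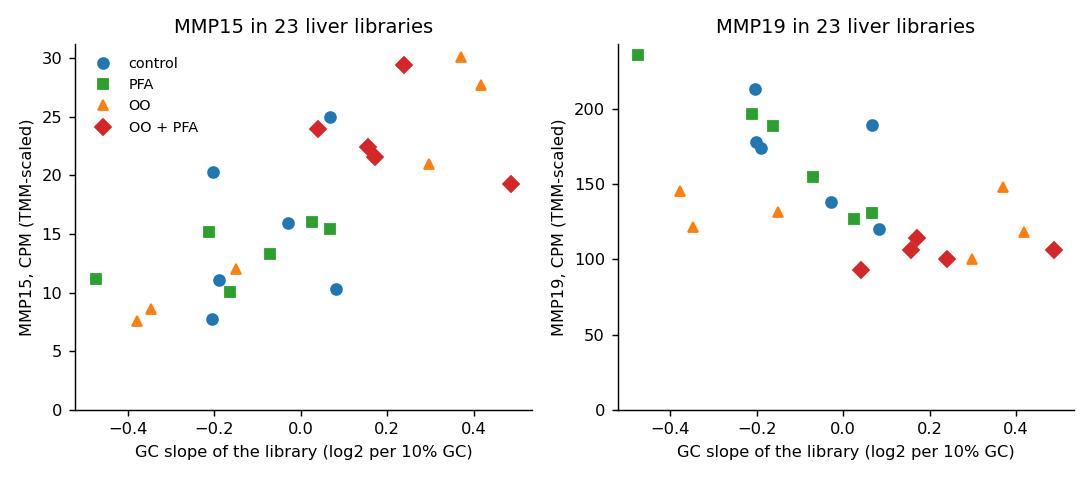
MMP15 (left) and MMP19 (right) in CPM against the GC slope of the library, in log2 units per 10% GC, in the 23 liver libraries used, coloured by diet. The 3 OO livers with a slope below 0 have MMP15 at 7.56 to 12.05 CPM and the 3 above 0 at 20.97 to 30.1 CPM. For MMP19 the 5 OO + PFA livers lie at 93.2 to 114 CPM over slopes of 0.04 to 0.49.

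The other members did not pass across the liver diets either, with adjusted p from 0.453 (MMP28) to 0.829 (TIMP1). MMP14, which activates pro-MMP2 at the cell surface, ranged from 30.0 to 86.8 CPM in control and from 63.5 to 104.9 in OO + PFA livers (log2 fold change 0.34, standard error 0.20, adjusted p = 0.338). For MMP28 the ranges were 0.415 to 1.49 and 1.01 to 2.24 CPM, and the log2 fold change was 0.76 (standard error 0.40, adjusted p = 0.267), or 0.35 after GC correction. Among the inhibitors TIMP1 was at 4.63 ± 1.65 CPM in control and 5.30 ± 1.43 in OO + PFA livers, TIMP3 at 54.9 ± 24.2 and 54.8 ± 10.6, and TIMP4 at 0.516 ± 0.363 and 0.475 ± 0.175 CPM (SD, n = 6 and 5). Their 95% intervals of the log2 fold change were -0.35 to 0.73, -0.49 to 0.48 and -1.03 to 0.78, so that changes within them are not excluded. These intervals are no limit of detection, since a call needed an adjusted p of at most 0.05 over all genes. The median log2 fold change of the 9 members was 0.34 for OO + PFA and 0.21 for OO against control, compared with -0.01 and 0.06 over all genes tested. After GC correction the medians of the 9 members were 0.03 and 0.03, and those of all genes with a GC value -0.03 and 0.01.

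**Figure D3:**
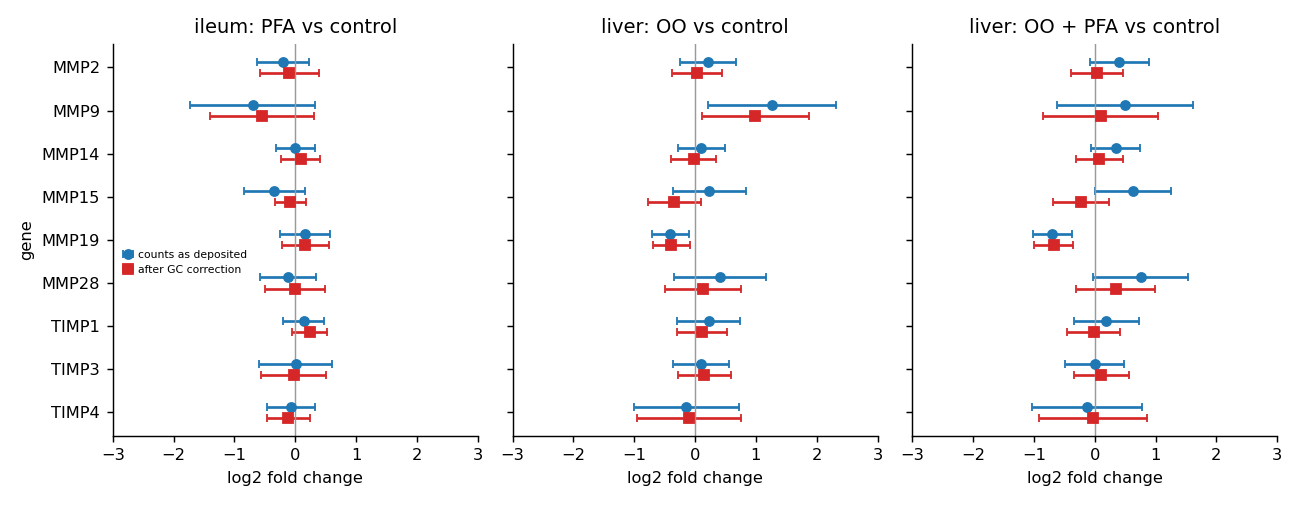
Log2 fold changes of the 9 members with 95% intervals for PFA against control in the ileum and for OO and OO + PFA against control in the liver, from the counts as deposited (circles) and after GC correction (squares). MMP19 lies at -0.70 and -0.68 with OO + PFA, whereas MMP15 moves from 0.63 to -0.23 and no member in the ileum has an interval clear of 0 in the counts as deposited.

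In the ileum PFA was compared with control in 5 pigs each, and no member was called, as was no gene at all (0% of 14300; 401 genes at an unadjusted p under 0.05 by edgeR, and 4 called by DESeq2). The smallest adjusted p of a member was 0.991. MMP9 was at 2.10 (pig 92), 2.18 (71), 2.51 (80), 2.63 (100) and 0.590 CPM (110) in control ileum and at 0.389 (95), 0.549 (107), 0.785 (138), 1.99 (75) and 2.43 CPM (134) with PFA. Of the 5 control pigs, 4 were above 3 of the 5 PFA pigs, and control pig 110 and PFA pigs 75 and 134 crossed over. The log2 fold change was -0.70 (standard error 0.53), between -1.11 (without pig 134) and -0.48 (without pig 95). MMP15 was at 29.7, 36.9, 48.4, 51.6 and 53.4 CPM in control and at 25.5, 25.8, 28.8, 32.8 and 60.3 CPM with PFA, the last in pig 134, for -0.34 (standard error 0.25), or -0.64 without pig 134. Pig 134 had a GC slope of 0.37, the highest of the 10 ileum libraries, and after GC correction MMP15 was at -0.08. Over the 10 pigs, with diet means removed, MMP15 was related to the GC slope with r = 0.89 (exact permutation p = 0.00708, adjusted p = 0.0371) and rho = 0.84 (exact permutation p = 0.00792, adjusted p = 0.0475). Without pigs 134 and 110, r was 0.68.

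The remaining members overlapped between the diets in the ileum. MMP2 was at 92.7 ± 23.2 CPM in control and 80.8 ± 22.7 with PFA, MMP14 at 101 ± 17.2 and 101 ± 20.6, and MMP19 at 8.39 ± 2.06 and 9.35 ± 2.18 CPM (SD, n = 5 each). MMP28 was at 7.41 ± 2.13 and 6.82 ± 1.56 CPM. TIMP1 was at 19.4 ± 3.24 and 21.3 ± 4.60 CPM and TIMP4 at 12.3 ± 2.69 and 11.8 ± 2.86. TIMP3 was at 169 ± 89.5 and 169.9 ± 45.2 CPM, with control pig 110 at 320 CPM and the other 9 pigs between 102.3 and 237. The 95% intervals of the log2 fold changes were -0.32 to 0.32 for MMP14, -0.20 to 0.48 for TIMP1 and -0.59 to 0.61 for TIMP3. The effect of PFA in the ileum minus that in the liver of the same pigs was not called for any member or any other gene (0% of 14982; 739 genes at an unadjusted p under 0.05 by edgeR, and 0 called by DESeq2), and was farthest from 0 for MMP9, at -1.89 (standard error 0.81, adjusted p = 0.976).

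**Figure D4:**
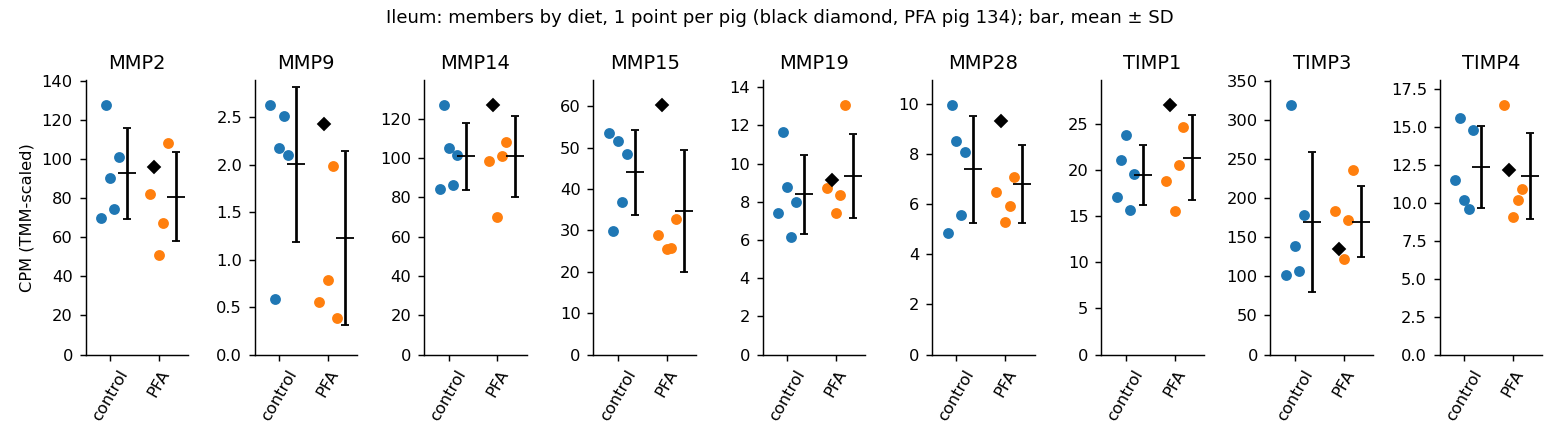
The 9 members in the ileum by diet, in CPM on separate axes from 0, with 1 point per pig, PFA pig 134 as a black diamond and the mean ± SD as a bar. For MMP15 pig 134 (60.3 CPM) lies above the other 4 PFA pigs (25.5 to 32.8), and for MMP9 control pig 110 (0.590 CPM) lies below the other 4 controls.

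Between the tissues of the same 10 pigs, members differed in both directions, in a fit without a term for the pig. Ileum libraries bear another form of title than either liver form, and the study states a lower minimum RNA integrity for the liver. Differences between tissues, sets of libraries and RNA quality therefore cannot be told apart. On a joint TMM scale MMP19 was at 252 ± 57.9 CPM in the liver and 6.00 ± 1.37 in the ileum (SD, n = 10), higher in the liver of all 10 pigs, 42.0-fold (log2 fold change -5.39, standard error 0.17, adjusted p = 5.05e-17). TIMP4 was at 8.16 ± 1.77 CPM in the ileum and 0.951 ± 0.534 in the liver, 8.50-fold higher in the ileum (adjusted p = 3.84e-09), MMP28 at 4.81 ± 1.17 and 1.59 ± 0.825 (log2 fold change 1.58, adjusted p = 1.17e-05), and TIMP1 at 13.8 ± 2.54 and 7.002 ± 1.94, 1.97-fold higher (adjusted p = 9.63e-06). The ranges of these 4 genes did not overlap between tissues. How many of all genes have ranges apart was not counted, so this does not set the 4 genes apart from others. Of the 9 members, 5 were called higher and 2 lower in the ileum, against 40.6% and 37.5% of all genes (78.1% in both directions together), so the number called is near the background.

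MMP9 was 2.09-fold and MMP2 1.42-fold higher in the ileum, each in 7 of 10 pigs (adjusted p = 0.0224 and 0.00887), and the MMP9 call was lost without pig 75 or pig 100 (highest adjusted p 0.0692). MMP14 was lower in the ileum by this scaling, at 68.4 ± 11.6 against 99.7 ± 23.1 CPM (log2 fold change -0.54, adjusted p = 0.00217), but it was 0.57 without scaling factors and -0.27 (adjusted p = 0.124) after GC correction. Leaving out the scaling factors moved the median log2 fold change of all genes from 0.05 to 1.17, so that MMP14 lay below the median of all genes and MMP15 and TIMP3 above it under both scalings. MMP15 (0.31, adjusted p = 0.167) and TIMP3 (0.31, adjusted p = 0.203) were not called. MMP15 was called after GC correction, at 0.80 (adjusted p = 0.000267), and both were called without scaling factors.

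**Figure D5:**
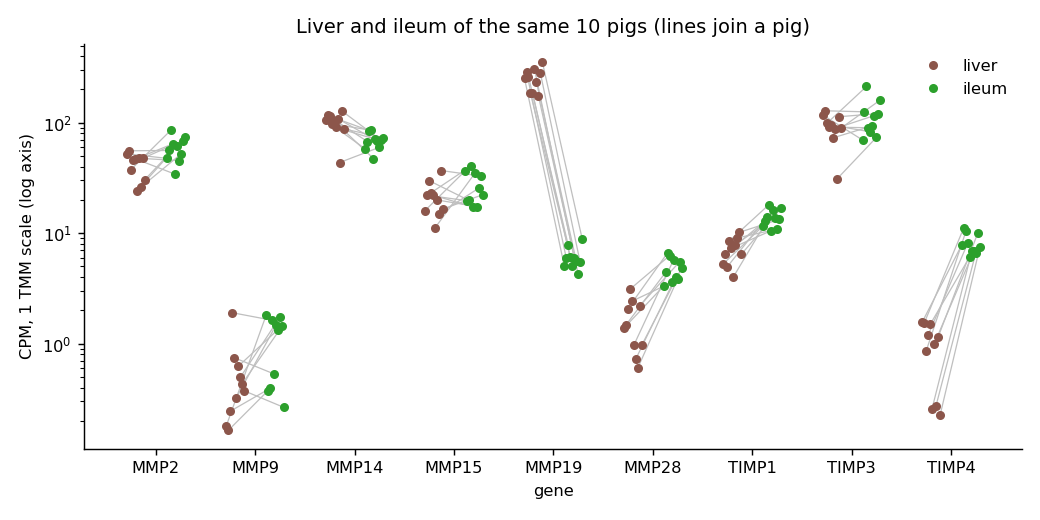
The 9 members in liver (left of each pair) and ileum (right) of the same 10 pigs, in CPM on 1 TMM scale with a log axis, and lines joining the samples of a pig. MMP19 drops from between 174 and 352 CPM in the liver to between 4.24 and 8.89 in the ileum, TIMP4, MMP28 and TIMP1 are higher in the ileum of all 10 pigs, and the other members overlap.

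Pairs of members that act together were compared across pigs with diet means removed, 3 pairs in each of 2 tissues, with p-values adjusted over these 6 relations. In the ileum, fibroblast and stellate cell markers summed highest in pig 110 (11302 CPM), which also had the highest MMP2 (128 CPM). Pigs 95, 92 and 134 followed in the same order for the markers (8686, 6876 and 6629 CPM) and for MMP2 (108, 101 and 95.8 CPM). In the remaining pigs the orders differed. The lowest sum was in pig 80 (4136 CPM, with MMP2 at 74.7 CPM), and MMP2 was lowest in pig 138 (50.7 CPM, with a sum of 5377 CPM). The part of cell content in the relations was not tested, nor was their strength compared with that of other gene pairs. MMP2 and MMP14 varied together in the ileum, with r = 0.90 (exact permutation p = 0.00167, adjusted p = 0.0100) and rho = 0.87 (exact permutation p = 0.00431, adjusted p = 0.0129) over 10 pigs, and r = 0.79 without pigs 138 and 110. In the liver the same pair had r = 0.58 (permutation p = 0.0133, adjusted p = 0.0318) and rho = 0.50 (permutation p = 0.0356, adjusted p = 0.0428) over 23 pigs, r = 0.64 without the 2 farthest pigs, and r = 0.69 in PigLiv and 0.20 in PL libraries. After GC correction r was 0.93 in the ileum (adjusted p of the exact permutation test 0.00333, rho = 0.96), or 0.86 without pigs 110 and 95, and 0.55 in the liver (adjusted p of the permutation test 0.0885), where it was 0.44 in PigLiv and -0.12 in PL libraries.

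MMP2 and TIMP1 had r = 0.79 in the ileum (exact permutation p = 0.0163, adjusted p = 0.0318; rho = 0.77, exact permutation p = 0.0210, adjusted p = 0.0382) and r = 0.53 in the liver (permutation p = 0.0212, adjusted p = 0.0318; rho = 0.51, permutation p = 0.0255, adjusted p = 0.0382). Without the 2 farthest pigs r was 0.72 and 0.54, and in the liver it was 0.74 in PigLiv and 0.82 in PL libraries. After GC correction r was 0.85 in the ileum (adjusted p of the exact permutation test 0.0206), but rho was 0.83 with an adjusted p of 0.0552 by the exact permutation test, and r was 0.55 without pigs 110 and 95. In the liver r was then 0.25 (adjusted p of the permutation test 0.352) and rho 0.15 (adjusted p 0.542 by the permutation test). MMP9 and its partner TIMP1 had r = 0.03 in the ileum (exact permutation p = 0.946, adjusted p = 0.946; rho = 0.04, exact permutation p = 0.925, adjusted p = 0.925), which was 0.52 without pigs 110 and 95 and -0.58 after GC correction (adjusted p of the exact permutation test 0.0885), or 0.05 with these pigs left out as well. In the liver r was 0.47 (permutation p = 0.0380, adjusted p = 0.0456) and rho 0.66 (permutation p = 0.00146, adjusted p = 0.00876), r was 0.48 without pigs 130 and 134, 0.47 in PigLiv and 0.54 in PL libraries, while r was 0.20 after GC correction (adjusted p of the permutation test 0.412). In the liver, TIMP1 itself was related to the GC slope with r = 0.67 (permutation p = 0.00161, adjusted p = 0.0290) and rho = 0.71 (permutation p = 0.00061, adjusted p = 0.0110), and MMP9 with r = 0.59 (permutation p = 0.00571, adjusted p = 0.0371) and rho = 0.64 (permutation p = 0.00142, adjusted p = 0.0128), among 18 relations to the slope. Without the 2 farthest pigs these r were 0.66 and 0.71, in PigLiv libraries 0.68 and 0.66 and in PL libraries 0.80 and 0.88.

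Of 16 other MMPs listed, 13 had a row. MMP1, the interstitial collagenase, was at 275 ± 40.7 CPM in the ileum on the joint scale and had at most 1 count in any of the 10 livers, and MMP13, another collagenase, was at 2.44 ± 1.51 CPM with at most 3 counts in the liver. MMP7, matrilysin, was at 16.5 ± 7.55 CPM in the liver and had at most 6 counts in an ileum library. Of the 10 other MMPs tested between tissues, 4 were called higher and 3 lower in the ileum, against 40.6% and 37.5% of all genes (78.1% together). In the liver MMP23B was the only 1 of 7 tested that was called with OO + PFA (5.08% of all genes), at 3.35 ± 1.77 CPM (SD, n = 5) and 0.455 ± 0.243 in controls (SD, n = 6) (log2 fold change 2.86, adjusted p = 0.0208), or 1.36 after GC correction (adjusted p = 0.0259). Its means were 1.08 CPM with PFA and 1.53 with OO. It lost the call without pig 71, 79, 100 or 110 (highest adjusted p 0.0631) and was not called across the 4 diets (adjusted p = 0.0528). In the ileum MMP13 had the smallest p of its list and was not called (log2 fold change 1.14, standard error 0.37, adjusted p = 0.991).

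Matrix substrates of the enzymes were called only with OO + PFA among the liver contrasts with control, 3 of 21, all higher, against 5.08% of all genes (4.09% as higher), and the contrasts were not compared with each other. Across the 4 diets 0 of 21 were called, where 3.66% of all genes were (COL5A1 adjusted p = 0.0549). COL6A1 was at 83.5 ± 38.7 CPM and 24.9 ± 8.28 in controls (log2 fold change 1.75, adjusted p = 0.0229), COL5A1 at 35.8 ± 10.2 and 11.9 ± 5.51 (1.59, adjusted p = 0.0200), and COL4A2 had a log2 fold change of 1.34 (adjusted p = 0.0309). The means with PFA and OO lay in between, at 45.7 and 49.2 CPM for COL6A1 and 19.9 and 20.7 for COL5A1. For COL4A2 they were 74.5 and 99.7 CPM, with 51.2 in controls and 130 with OO + PFA. After GC correction COL5A1 was at 0.36 (adjusted p = 0.487) and COL4A2 at 0.24 (adjusted p = 0.380), and COL6A1 has no GC value. Fibroblast and stellate cell markers summed to between 867 and 2187 CPM in OO + PFA and between 661 and 1934 CPM in control livers, and their part in these values was not tested. The list's median log2 fold change was 0.06, and these 3 calls were each lost without single pigs (2 pigs for COL5A1, 5 for COL6A1 and 7 for COL4A2). Between tissues 11 of 21 were higher and 3 lower in the ileum (40.6% and 37.5% of all genes, 78.1% together), among them lumican (LUM, 187 ± 45.0 against 2.65 ± 1.27 CPM) and versican (VCAN, 71.7 ± 9.01 against 8.13 ± 1.28), while biglycan (BGN) was lower (9.92 ± 3.48 against 205 ± 52.3 CPM). In the ileum BGN had the smallest p of the list with PFA and was not called (-0.40, adjusted p = 0.991).

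Among other matrix proteases, cathepsin B (CTSB), a lysosomal protease, was the 1 of 15 genes tested that was called across the liver diets (3.66% of all genes; adjusted p = 0.0143) and rose 1.55-fold with OO (log2 ratio 0.64 ± 0.12 standard error, adjusted p = 0.00594). After GC correction this log2 ratio was 0.53 (adjusted p = 0.0254). The adjusted p of CTSB across the diets was 0.0534 after GC correction. Of the signals that induce MMPs, 4 of 14 were called across the diets, where 3.66% of all genes were, with JUNB, JUN and FOSL2, subunits of AP-1, at adjusted p of 0.0137, 0.0255 and 0.0400. The other called gene was FOSB, also an AP-1 subunit, which is named here after its values were seen. The call of FOSL2 was lost without any of 10 single pigs, without scaling factors (adjusted p 0.0509) and with the title form as a term (adjusted p 0.0581), that of JUN without 3 and after GC correction (adjusted p 0.0664), and that of JUNB without pig 98 (adjusted p 0.0511). With OO + PFA, JUNB was at 19.8 ± 8.71 CPM (SD, n = 5) and 2.89 ± 1.26 in controls (SD, n = 6), with the lowest OO + PFA liver (7.89) above the highest control (5.31) (log2 fold change 2.76, standard error 0.56, adjusted p = 0.0118), or 2.37 after GC correction (adjusted p = 0.00266). The means of JUNB were 4.65 CPM with PFA and 6.98 with OO. Its log2 fold change for OO + PFA against control was 2.59 within PigLiv libraries (adjusted p = 0.0551). Within PL libraries, with 1 OO + PFA liver, it was 3.25.

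No activator, brake or clearance gene was called in a liver contrast or the ileum. Of 15 tested in the liver (14 in the ileum), A2M, a general protease trap, had the smallest p across the liver diets (adjusted p = 0.0949), and in the ileum SERPINE2, an inhibitor of plasminogen activators, did (log2 fold change 0.33, adjusted p = 0.991), as did CTSL (0.53, adjusted p = 0.991) and JUN (-0.52, adjusted p = 0.991) of the protease and signal lists. Between tissues 5 of these 15 were called higher and 7 lower in the ileum, where 40.6% and 37.5% of all genes were (78.1% together), the background for the 2 lists that follow as well. Plasminogen (PLG), the precursor of plasmin, an activator of MMPs, was at 6514 ± 1628 CPM in the liver and had 0 counts in all 10 ileum libraries, A2M was at 9175 ± 2434 and 36.1 ± 8.29 CPM, and SERPINF2, the plasmin inhibitor, at 876 ± 133 and 39.4 ± 11.3. Of the proteases, MEP1B, a brush border meprin, was at 439 ± 82.0 CPM in the ileum and at most 2 counts in the liver, ADAM10 at 157 ± 23.5 and 39.5 ± 7.72 and CTSB at 250.4 ± 44.9 and 1054 ± 139 CPM, and 7 of 16 were called higher and 4 lower. Of the 14 signals, 5 were called higher and 5 lower, with FOSL2 at 82.2 ± 17.3 and 13.6 ± 3.87, ETS2 at 107 ± 13.6 and 59.3 ± 11.3, and TGFB2 at 7.68 ± 2.56 and 2.97 ± 0.845 CPM.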

How the data were processed

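RNA-seq libraries of ileum (10) and liver (24) were analysed, grouped by the labels. Reads were aligned by the authors with STAR 2.6.1d (Sscrofa11.1) and assigned to Ensembl genes by HTSeq, and the raw counts were deposited without normalization. The submitters' processing notes also name DESeq2 1.22.2. The annotation release is not given in the sources used here. Lines that name no gene were left out of library sizes. They held pairs on no gene, equal to between 7.54% and 27.9% of the pairs on genes.

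Symbols came from a gene name table (14857 genes), and positions and GC content from the RefSeq annotation of Sscrofa11.1, the same build (13703 genes). All 9 members have a GC value, whereas 79.3% of the genes tested in the ileum and 79.7% in the liver do, so counts of calls after GC correction cover those genes only and are no check of all genes. Members and gene lists were chosen with earlier results of these data known.

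Counts were analyzed with edgeR 4.0.16 (TMM, filterByExpr, quasi-likelihood test, two-sided) in R 4.3.3, and genes were called at a Benjamini-Hochberg adjusted p of at most 0.05 over all genes. Diets were compared over pigs, with 1 library each, and tissues over the 10 pigs with both. The tissue comparison used libraries of the same animals, but the main fit had terms for tissue and diet and none for the pig. Its p-values are therefore unpaired, and the pig was a block only in an alternative fit. Deviations of a pig's libraries from their diet means correlated over 14982 genes at between -0.18 and 0.46, over 0.1 in 8 of 10 pigs. CPM uses TMM-scaled library sizes, and log2 CPM a prior count of 2. GC correction used a lowess curve per library (span 0.5). Correlations used all permutations within diets in the ileum and 100000 in the liver. Scripts were tested on simulated data. From each list of other genes the called genes were named, at most 3 with the smallest p per comparison, or in the ileum and across the liver diets the gene with the smallest p where none was called. Alternatives were DESeq2 1.42.0, other scaling, other filters, GC correction, all 24 livers, title form, the 2 diets alone, a replicate block for the pig and leaving out each pig. Fits without scaling factors or within a title form, and the relations to the GC slope, were chosen after seeing the data.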

Additional observations from a re-analysis of the deposited data

Results flagged for a closer look

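Within groups, 4 of 54 sets of pigs, 1 member in 1 group each, had a highest or lowest pig far from the others by Dixon's test at 95%, which chance gives in about 1 of 20. MMP9 was at 1.31 CPM in the PFA liver of pig 134 and at 1.93 CPM in the OO liver of pig 130, above the rest of their diets, and at 0.590 CPM in the control ileum of pig 110, below the rest. MMP15 was at 60.3 CPM in the PFA ileum of pig 134. Pigs 134 and 130 also had the highest or nearly the highest GC slope of their groups (0.37 in the ileum of pig 134, 0.03 in its liver and 0.37 in the liver of pig 130), and the part of the slope in these values was not tested.

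The OO + PFA liver library of pig 77, outside all comparisons above, lay above every control liver for 4 members, with MMP2 at 59.1, MMP9 at 0.992, MMP28 at 2.20 and TIMP1 at 26.4 CPM. In the other 23 livers TIMP1 lay between 2.69 and 9.20 CPM. In this library the 10 highest genes took 48.3% of the pairs on genes, pairs with several positions equalled 36.6% of them, and MMP19 was at 34.5 CPM, below every other liver.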

How the results depend on the processing

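The replicate block for the pig, which pairs the tissues of an animal, gave 11720 genes between tissues against 11699 without it, 0 for the difference of the PFA effect, and MMP19 at -5.38, and changed no call of a member. Genes called by DESeq2 were 4 in the ileum, 1776 across the 4 liver diets, 1079 for OO, 43 for PFA and 1370 (928 higher, 442 lower) for OO + PFA against control, 31 for OO + PFA against OO and 150 for the interaction. After GC correction they were 802, 810 (319 higher, 491 lower against 190 and 185) and, for OO + PFA against control, 381 higher and 367 lower (as deposited, 565 of 702 were higher), with 11 against OO and 6 for the interaction. RLE size factors gave 185 higher and 274 lower genes for OO. With RLE, without scaling factors or without a filter the interaction had 2 genes. With all 24 livers the counts were 1113, 224, 1530 and 1, and with the 2 diets alone 194 for OO and 1690 for OO + PFA. Leaving out single pigs gave 297 to 1450 genes across diets, 167 to 1325 for OO, 191 to 1127 for OO + PFA, 0 to 7 against OO and 0 to 5 for the interaction. Of 6 pairs of members, 5 were called as deposited and 2 after GC correction. Log2 fold changes that changed sign were, in the ileum, MMP14 (-0.0028 by DESeq2 and -0.0028 by RLE) and TIMP3 (-0.026 after GC correction). For OO they were MMP19 (0.10 in PL libraries) and, after GC correction, MMP14 (-0.022) and MMP15 (-0.34). For PFA in the liver MMP19 was at -0.031 without scaling factors and -0.13 in PigLiv libraries, where its interaction was 0.022. For OO + PFA against control, GC correction gave MMP15 -0.23, TIMP1 -0.019 and TIMP3 0.11, and TIMP3 was at 0.052 without scaling factors, 0.0072 without a filter, 0.0050 with at least 10 counts and 0.0065 with the 2 diets alone. MMP14 between tissues was at 0.57 without scaling factors. Without single pigs, in the ileum MMP19 ran from -0.0072 to 0.31, MMP14 from -0.10 to 0.11, TIMP3 from -0.15 to 0.37, TIMP4 from -0.22 to 0.031 and MMP28 from -0.26 to 0.015. In the liver MMP14 ran from -0.038 to 0.22, TIMP3 from -0.069 to 0.24 and TIMP4 from -0.31 to 0.18 for OO, MMP19 from -0.076 to 0.11 for PFA, and TIMP3 from -0.17 to 0.14 and TIMP4 from -0.29 to 0.20 for OO + PFA. The cause of these changes was not tested. Libraries with few counts limit MMP9 and TIMP4 in the liver, at 3 to 35 and 3 to 32 counts, and 1 pen per diet limits every diet comparison.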
